A study of Mus musculus with 9 samples.

Results

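A set of 10 genes of the transforming growth factor beta (TGF-beta) pathway was followed across all groups of a study that cultured mouse peritoneal macrophages alone or with CT-26, a colon carcinoma line from mouse. They were the ligands Tgfb1, Tgfb2 and Tgfb3, the receptors Tgfbr1 and Tgfbr2, the signalling proteins Smad2 and Smad3, the inhibitory Smad6 and Smad7, and the nuclear corepressor Skil. Their probes were taken by gene name, and the set of genes was chosen with earlier results of these data known. The array held 17 probes with these names. Of the 10 genes, 9 were among the 18162 genes tested, and the remaining gene, Tgfb2, stayed near background throughout.

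Macrophages from male mice were kept for 24 h in regular medium without other cells (group Ctrl) or for 24 h with CT-26 cells in the lower chamber of a Transwell, a culture insert whose porous membrane separates 2 chambers (group T). Group M held the macrophages that the titles, descriptions and protocol call migratory, taken from the upper chamber of a Transwell with CT-26 cells. The sources used here do not give how long M was cultured, nor the strain and age of the mice. A cell type label calls the T samples migratory too, and the grouping followed the titles and the design. Macrophages of all groups had been sorted for CD45 and for the macrophage antigen encoded by Adgre1, and each group had 3 one-colour Agilent arrays. Whether the 3 samples of a group came from different animals or cultures is not stated, so the p-values reflect the scatter of these samples alone, and that scatter may be technical.

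TGF-beta is secreted as a latent complex and has to be released before it can bind. The active ligand binds the type II receptor Tgfbr2, which recruits and phosphorylates the type I receptor Tgfbr1. The activated receptor phosphorylates Smad2 and Smad3, which enter the nucleus with Smad4 and change transcription. Smad7, Smad6 and Skil act against the pathway and are themselves among its well-known transcriptional targets, Smad6 best known for bone morphogenetic protein (BMP) signalling. In macrophages TGF-beta is known for restraining inflammatory activation and for shaping the identity of tissue-resident cells.

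Values below are log2 of the processed signal minus the array's 75th percentile, so 0 is the signal at that percentile of the array. Differences are log2 differences between group means with the moderated standard error of limma, a linear model fitted to all 9 arrays. Adjusted p-values are limma's, with Benjamini-Hochberg adjustment over all tested genes, and a difference was called at an adjusted p under 0.05. All Ctrl and M arrays lay on 1 slide, and all T arrays on another. Slide and treatment therefore cannot be told apart wherever T is compared, whereas M against Ctrl lies within 1 slide. Between 60.5% and 78.7% of probes were well above background on each array. Across tested genes, arrays of a group correlated at 0.969 to 0.991 in Ctrl, 0.993 to 0.996 in T and 0.989 to 0.992 in M, and Ctrl3 stood apart from the other Ctrl arrays. Ctrl3 correlated at 0.969 with Ctrl1 and 0.981 with Ctrl2, against 0.968 to 0.976 with the M arrays and 0.964 to 0.970 with the T arrays. Of 14 macrophage identity markers 13 passed the filter, and each of these was well above background on at least 1 array of every group, which was also so for the 6 tested B cell markers. Their summed linear level, in units of the array's 75th percentile, was 215 to 256 on Ctrl, 183 to 249 on T and 208 to 290 on M arrays.

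The probe sequences show what was measured. The Tgfb1 and Tgfb2 probes below lie in the region coding for the C-terminal mature ligand, and capitals mark the bases they share when laid side by side without gaps. The Tgfb1 probe lies at chr7:26489877-26489936 on the plus strand and the Tgfb2 probe at chr1:188449333-188449392 on the minus strand (mm9).
Tgfb1: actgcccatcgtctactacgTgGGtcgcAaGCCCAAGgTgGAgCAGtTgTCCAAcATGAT
Tgfb2: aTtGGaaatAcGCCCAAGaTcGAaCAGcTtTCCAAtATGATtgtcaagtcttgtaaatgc
They share 28 of 41 aligned bases, or 68.3%.

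The probe of Tgfbr2 shown next is the gene's other tested probe and is printed because it moved against the brighter one. It lies at chr9:115999496-115999555 on the minus strand (mm9), and its capitals mark the stop codon that ends the coding sequence. The Skil probe lies at chr3:31016390-31016449 on the plus strand (mm9) and is that gene's other tested probe.
Tgfbr2: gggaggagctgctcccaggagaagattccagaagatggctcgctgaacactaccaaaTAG
Skil: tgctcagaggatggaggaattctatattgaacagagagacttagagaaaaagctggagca

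In T against Ctrl, 7 of the 9 tested members rose and 0 fell. The risers were Tgfb3, Tgfbr1, Tgfbr2, Smad3, Smad6, Smad7 and Skil, by 0.76 to 2.53 on the log2 scale. Tgfbr2 is counted by the probe with the highest mean over all arrays, T included, and its other tested probe was lower in T (-0.63). The other 2, Tgfb1 and Smad2, differed by 0.23 and 0.44 and were not called. Of all tested genes, 17.6% were called higher and 27.1% lower in this comparison, 44.7% together, and the median difference was 1.27 over the members against -0.14 over all genes. At an unadjusted p under 0.05 limma likewise gave 7 higher and 0 lower. The T arrays lay wholly above the Ctrl arrays for 8 members, a pattern found in 22.5% of all tested genes (30.9% for the opposite order), and Smad6, which lacked a Ctrl value, was not counted there. Each of the 7 calls was kept when any 1 array was left out, and without both Ctrl1 and Ctrl2 there were 5, Tgfbr1 (0.85) and Smad3 (0.36) not being called. The direction of all 9 differences was the same under quantile normalization and under scaling to the array median, where all 9 were called higher. Median scaling also moved the median difference of all genes from -0.14 to 0.28.

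In M against Ctrl, Tgfbr1 and Smad7 rose and Tgfb3 fell, while the remaining 6 were not called. Over all tested genes 12.3% were called higher and 11.1% lower, 23.4% together. The M arrays lay wholly above the Ctrl arrays for 5 members and below for 2, against 16.8% and 19.4% of all genes. The median difference was 0.43 over the members and -0.09 over all genes. At an unadjusted p under 0.05, 5 members were higher and 2 lower. The 2-higher and 1-lower counts were not stable: without Ctrl3 there were 5 higher and 1 lower, while without Ctrl1, Ctrl2, M1 or M3 there was 1 higher, and without Ctrl1, Ctrl2, T3 or any M array 0 were lower. Without M2 there were 3 higher.

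In M against T, Tgfb3, Smad3, Smad6, Smad7 and Skil were lower and 0 members were called higher, with 1, Tgfbr1, higher at an unadjusted p under 0.05 in limma. Over all tested genes 10.8% were called lower and 14.7% higher, 25.5% together. The M arrays lay wholly below the T arrays for 6 members and above for 2, against 19.7% and 28.6% of all genes. The median difference was -0.89 over the members and 0.11 over all genes. The count of 5 fell to 4 without T1, T2, T3, M2 or M3, each time through Skil, and the count of 0 became 1, Tgfbr1, without Ctrl1 or M2. The comparisons share arrays, so a gene high in T alone is counted in T against Ctrl and again in M against T.

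**Figure D1:**
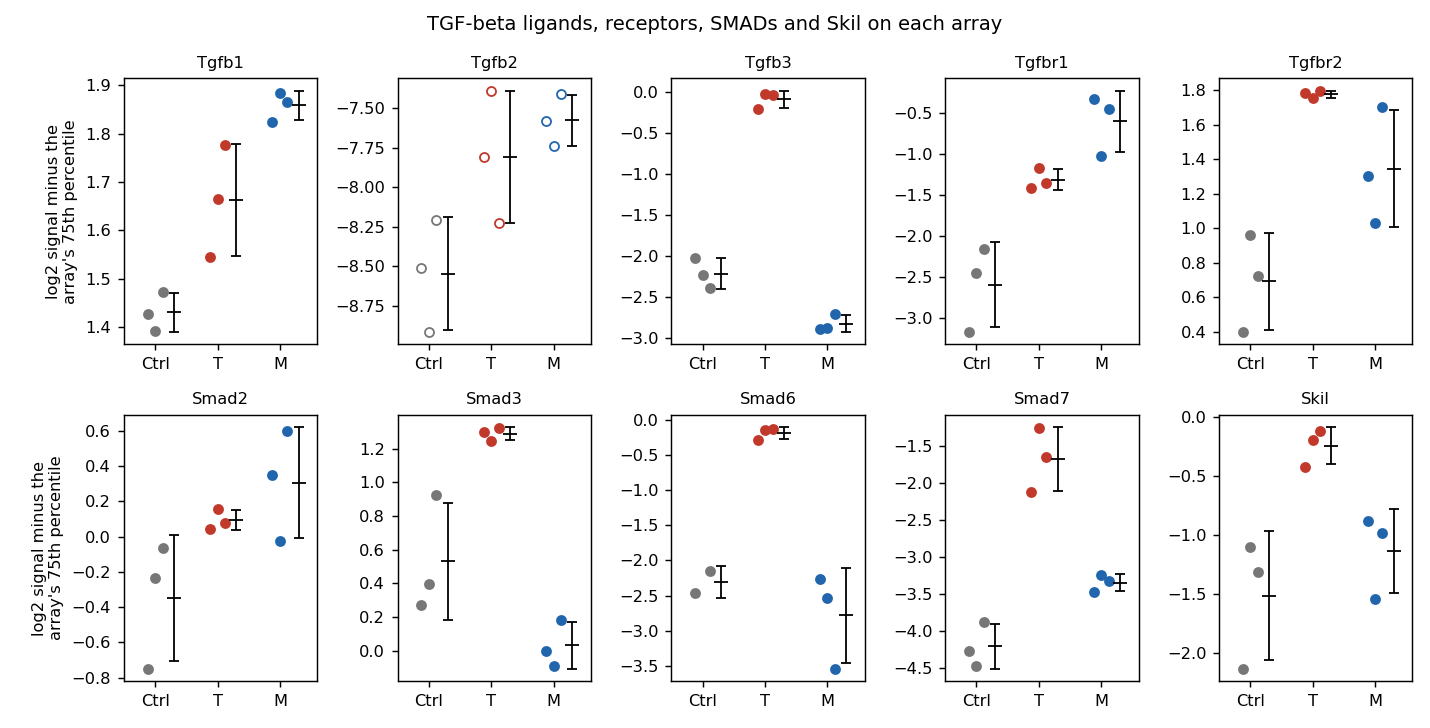
Level of each gene on each array, as log2 signal minus the array's 75th percentile, with a separate vertical scale per gene. Points are arrays, bars are the mean ± SD of a group (n = 3, but 2 for Smad6 in Ctrl), and open points (Tgfb2) are not well above background. The T arrays stand above both other groups for Tgfb3, Smad3, Smad6, Smad7, Skil and, on the probe drawn, Tgfbr2, while Tgfb1 and Tgfbr1 are highest in M.

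**Figure D2:**
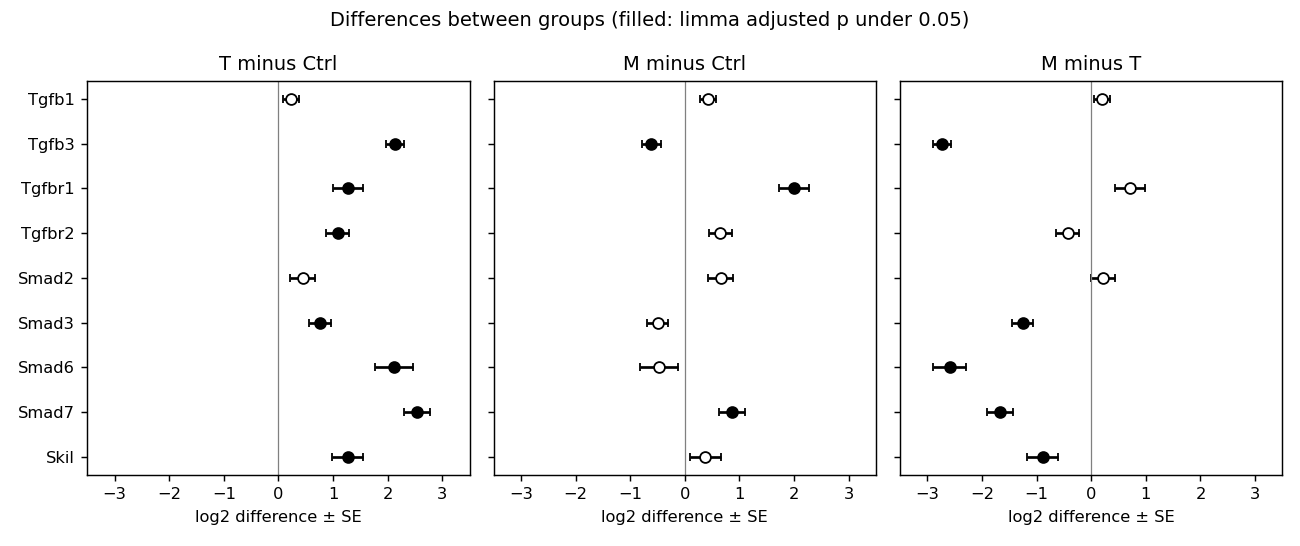
Log2 difference between group means ± the moderated SE for the 9 tested genes in each comparison; filled points have a limma adjusted p under 0.05. Of T against Ctrl 7 points are filled, all to the right of 0, and of M against T 5 are filled, all to the left.

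Among the ligands, Tgfb3 moved most. Its probe (A_51_P124748, chr12:87397804-87397863, mm9, minus strand) was printed as 10 spots, whose coefficient of variation within an array was 2.3% to 15.8%. The level was -2.02, -2.23 and -2.40 on the Ctrl arrays, -0.21, -0.021 and -0.038 on the T arrays, and -2.90, -2.88 and -2.71 on the M arrays. The 3 groups did not overlap, with T at the top and M at the bottom. Tgfb3 rose 4.37-fold in T, a log2 difference of 2.13 ± 0.17 from Ctrl (limma adjusted p = 1.43e-05). M was lower than T by 2.74 on the log2 scale (SE 0.17, limma adjusted p = 3.34e-06). The drop in M against Ctrl was -0.61 ± 0.17 (limma adjusted p = 0.0279), and it was no longer called without Ctrl1, Ctrl2, T3, M1, M2 or M3, where it lay between -0.67 and -0.51, under median scaling (-0.31, adjusted p = 0.287), in a fit of these 2 groups alone (adjusted p = 0.0739) or with the replicate number as a block (adjusted p = 0.0508). In the authors' deposited value table the T2 entry for Tgfb3 was -3.20, against -0.021 in the scanner file of that array. With that table the T against Ctrl difference was 1.07 and not called (limma adjusted p = 0.249).

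Tgfb1, the main isoform of immune cells, was steady by comparison. Its level was 1.43, 1.39 and 1.47 on the Ctrl arrays, 1.55, 1.67 and 1.78 on the T arrays, and 1.82, 1.88 and 1.87 on the M arrays. These arrays did not overlap between groups and ran in the order Ctrl, T, M, with small steps. The difference was 0.23 ± 0.15 in T against Ctrl (limma adjusted p = 0.224), 0.43 ± 0.15 in M against Ctrl (limma adjusted p = 0.059) and 0.20 ± 0.15 in M against T (limma adjusted p = 0.370), and none was called. M against Ctrl was called under quantile normalization (0.40), under median scaling (0.73) and without Ctrl3 (0.45, limma adjusted p = 0.0304). The 10 spots of its probe varied by 3.4% to 12.7%.

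Tgfb2 had 2 probes on chromosome 1, and neither was well above background on any of the 9 arrays. The signal of the probe printed above lay between -8.92 and -7.39, and no level or fold was derived from it.

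Tgfbr1, the type I receptor, had its highest values in M, as had Tgfb1. Its tested probe (A_55_P2137206, chr4:47427736-47427795, mm9, plus strand) read -3.17, -2.44 and -2.16 in Ctrl, -1.42, -1.17 and -1.35 in T, and -0.33, -1.03 and -0.45 in M. The 3 groups did not overlap. Tgfbr1 was higher than in Ctrl by 1.28 ± 0.28 in T (limma adjusted p = 0.0051) and by 1.99 ± 0.28 in M (limma adjusted p = 0.000775), which is 2.43-fold and 3.98-fold. M exceeded T by 0.71 ± 0.28, which was not called (limma adjusted p = 0.0858), though it was without Ctrl1 (0.71, limma adjusted p = 0.0365) or M2 (0.92, limma adjusted p = 0.0495). The other 3 Tgfbr1 probes were not tested; 1 of them was well above background on 2 Ctrl arrays and 1 T array, and the rest on none.

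Tgfbr2, the type II receptor that binds the ligand, gave opposite answers on its 2 tested probes. The brighter probe (A_51_P450573, chr9:115997155-115997214, mm9, minus strand) read 0.40, 0.96 and 0.72 in Ctrl, 1.78, 1.75 and 1.79 in T, and 1.30, 1.03 and 1.70 in M. By this probe Tgfbr2 was higher in T than in Ctrl by 1.08 ± 0.21 (limma adjusted p = 0.00329). M stood 0.65 ± 0.21 above Ctrl (limma adjusted p = 0.0505), a difference called without Ctrl3 (0.67) or M2 (0.81), and M against T gave -0.43 ± 0.21 (limma adjusted p = 0.168). The probe at the stop codon, 2341 bases upstream in the gene's direction, read 1.30, 0.98 and 1.71 in Ctrl, 0.77, 0.64 and 0.69 in T, and 0.77, 1.12 and 0.80 in M. There T lay below Ctrl by 0.63 on the log2 scale (-0.63 ± 0.21, limma adjusted p = 0.035 over all probes). The mean over both probes was 0.23 and not called (limma adjusted p = 0.252), so the direction of Tgfbr2 depends on the probe.

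**Figure D3:**
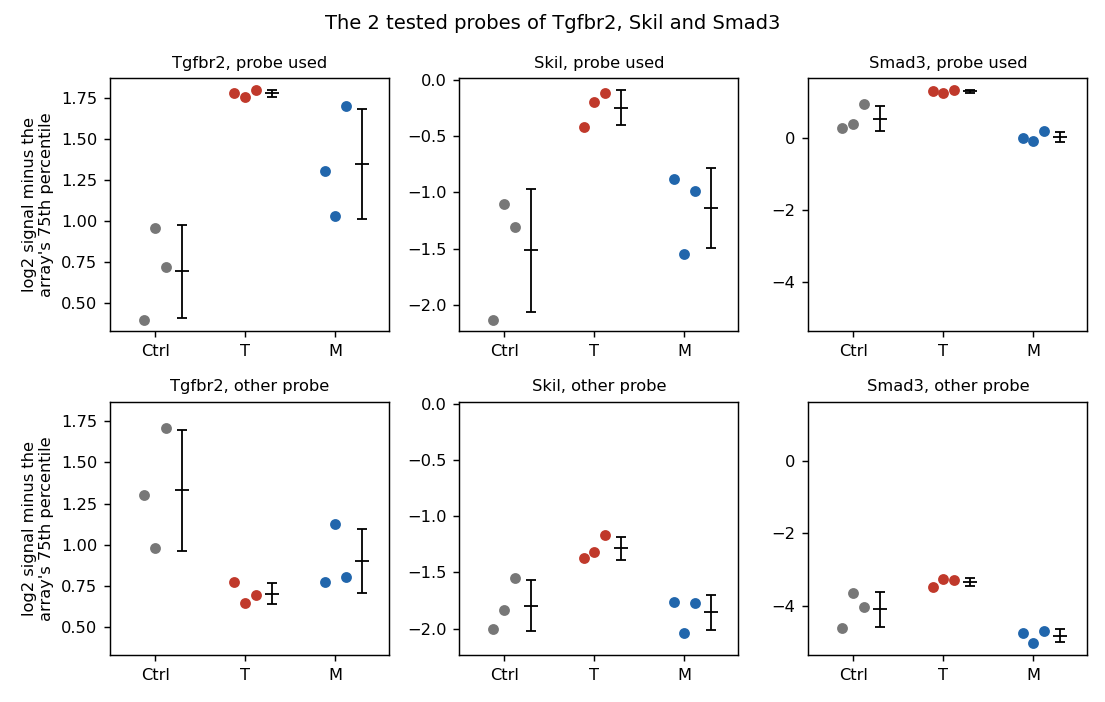
The 2 tested probes of Tgfbr2, Skil and Smad3 on each array, as log2 signal minus the array's 75th percentile; points are arrays and bars are the mean ± SD (n = 3), and the scale is shared within a gene. The Tgfbr2 probes move in opposite directions between Ctrl and T (1.08 and -0.63), whereas both probes of Skil and of Smad3 are highest in T.

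Smad2 and Smad3, the transducers phosphorylated by the receptor, differed from each other. Smad3 (A_55_P2101001, chr9:63494574-63494633, mm9, minus strand) read 0.27, 0.39 and 0.93 in Ctrl, 1.30, 1.24 and 1.32 in T, and -0.0015, -0.0885 and 0.18 in M. T lay above and M below every Ctrl array. The difference was 0.76 ± 0.20 in T against Ctrl (limma adjusted p = 0.0116), -0.50 ± 0.20 in M against Ctrl (limma adjusted p = 0.0854) and -1.26 ± 0.20 in M against T (limma adjusted p = 0.00128). The gene's second probe, 2918 bases away, gave 0.76, -0.73 and -1.49 for the same comparisons. M against Ctrl was called under the mean over both probes, and it was -0.89 without Ctrl1 and Ctrl2. Without Ctrl1 and Ctrl2 the T against Ctrl difference was 0.36 and not called (limma adjusted p = 0.212), and with the deposited value table, where T2 read -0.52, it was 0.17. Smad2, measured by 1 probe on chromosome 18, read -0.75, -0.23 and -0.0625 in Ctrl, 0.043, 0.15 and 0.078 in T, and 0.35, -0.026 and 0.60 in M. T and M lay above every Ctrl array. The differences of 0.44 ± 0.22 (limma adjusted p = 0.134) in T and 0.65 ± 0.22 in M (limma adjusted p = 0.0577) were not called, the second being called without Ctrl3 (0.80) or M2 (0.82), and both under median scaling.

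Of all members, Smad7 had the largest rise in T. Smad7, which blocks the type I receptor and brings ubiquitin ligases to it, was measured by 1 probe on chromosome 18. It read -4.26, -4.48 and -3.88 in Ctrl, -2.12, -1.26 and -1.65 in T, and -3.47, -3.24 and -3.32 in M. The groups did not overlap, with T at the top and M between. Smad7 was 5.77-fold higher in T than in Ctrl, a difference of 2.53 ± 0.24 (limma adjusted p = 5.19e-05), and M was lower than T (-1.67 ± 0.24, limma adjusted p = 0.000799). M exceeded Ctrl by 0.86 ± 0.24 (limma adjusted p = 0.0314), a call that ended without Ctrl1, Ctrl2, M1, M2 or M3, where the difference was 0.73 to 0.92.

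Smad6 inhibits signalling at receptors of the BMP branch. Its probe (A_55_P2129658, chr9:63800980-63801039, mm9, minus strand) read -2.47 and -2.14 in Ctrl, -0.28, -0.15 and -0.14 in T, and -2.26, -2.54 and -3.54 in M. The single spot of Ctrl2 was marked as an outlier and dropped, so Ctrl has 2 values. T lay above all other arrays. Smad6 was 4.34-fold higher in T than in Ctrl, a difference of 2.12 ± 0.34 (limma adjusted p = 0.00162). It was -2.59 ± 0.30 in M against T (limma adjusted p = 0.000345) and -0.47 ± 0.34 in M against Ctrl (limma adjusted p = 0.317). With outlier spots kept, T against Ctrl was 1.84 (limma adjusted p = 0.00247).

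Skil, also known as SnoN, binds Smad proteins and represses their targets. Its probe A_51_P118132 (chr3:31021203-31021262, mm9, plus strand), printed as 10 spots that varied by 2.76% to 17.3%, read -2.13, -1.10 and -1.31 in Ctrl, -0.42, -0.20 and -0.12 in T, and -0.88, -1.54 and -0.99 in M. T lay above all other arrays, and Ctrl and M overlapped. The difference was 1.27 ± 0.28 in T against Ctrl (limma adjusted p = 0.00577), 0.38 ± 0.28 in M against Ctrl (limma adjusted p = 0.329) and -0.89 ± 0.28 in M against T (limma adjusted p = 0.0421). The last call ended without T1, T2, T3, M2 or M3 (-0.98 to -0.69) and with the replicate block (limma adjusted p = 0.0539). The printed second probe of Skil, 4813 bases away, gave 0.51 (limma adjusted p = 0.043 over all probes), -0.060 and -0.57 (limma adjusted p = 0.0486 over all probes).

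The table of promoters from RefSeq (GRCm38.p6), 250 bases before to 50 after a gene's start, matched 6 of the 10 genes with 7 promoters. Tgfb3, Skil, Smad2 and Smad7 had no promoter there under these names and were not searched. The 7 promoters were searched on both strands for the palindrome GTCTAGAC, a SMAD binding element, for its shorter form CAGAC, and for TGACTCA, to which AP-1 factors bind. No match of one motif can hold another. The palindrome was in 1 of the 7, that of Smad6, starting 4 bases before the gene's start. It was in 70 of all 32851 promoters there, or 0.213%. The Smad6 stretch up to the last base of the palindrome is printed because no other searched member promoter held it, with the palindrome in capitals (chr9:64022056-64022309, GRCm38.p6, minus strand).
Smad6: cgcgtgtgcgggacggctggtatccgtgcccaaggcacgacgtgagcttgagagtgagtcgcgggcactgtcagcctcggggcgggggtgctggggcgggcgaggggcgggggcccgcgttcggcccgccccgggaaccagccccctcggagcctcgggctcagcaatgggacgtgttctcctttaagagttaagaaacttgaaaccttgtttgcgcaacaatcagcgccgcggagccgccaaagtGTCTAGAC
CAGAC was found 2 times in the promoter of Tgfb2, 1 time in that of Tgfbr2 and 1 time in 1 of the 2 promoters of Tgfbr1, against 49.6% of all promoters with at least 1 match. None of the 7 held TGACTCA, which 5.2% of all promoters did. These matches describe the letters in the window and not binding.

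Over the 9 arrays, the members' patterns grouped as the values above show. Smad3 and Smad6 tracked Tgfb3 with Pearson r of 0.908 (n = 9 arrays) and 0.939 (n = 8 arrays), Skil tracked Tgfbr2 at 0.905, and Tgfbr1 tracked Smad2 at 0.929. Tgfb3 and Tgfbr1 had r = -0.064. Every r of Tgfbr2 here belongs to its brighter probe, and its other tested probe moved the opposite way in T. Of other named genes, the most like Tgfb3 were Neurl1a (0.997), Atp7b (0.996) and Tmem95 (0.992). The most like Smad7 were Artn (0.990), Aknad1 (0.989) and Epor (0.988), and the most like Tgfbr1 were Osbpl8 (0.992), Tmem41b (0.991) and Dock8 (0.991). Plppr2 was most like Tgfb1 (0.987), Zfp953 most like Tgfbr2 (0.990), Snhg12 most like Smad3 (0.989), Ak8 most like Smad6 (0.994) and Aldh1l2 most like Skil (0.992). All these arrays share the grouping and the slides, so r mainly describes the differences between groups.

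Other pathway genes were described by list. The lists share some genes, among them Pmepa1, Ltbp3 and Itgb6, so a gene can be counted more than once. Bmp1, a protease, was placed on the list of ligands and also on that of release and storage. The list counts stand beside these shares of all tested genes: 17.6% higher and 27.1% lower in T against Ctrl, 12.3% and 11.1% in M against Ctrl, and 14.7% and 10.8% in M against T. Of 17 tested genes that release or store TGF-beta, 4 rose and 5 fell in T, with a median of -0.02 that became 0.40 under median scaling. In M 3 rose and 3 fell against Ctrl. Median scaling turned this balance, with 7 higher and 3 lower in T and 5 higher and 1 lower in M. Plat, the tissue plasminogen activator, rose by 2.80 ± 0.17 in T (limma adjusted p = 2.66e-06) and by 3.88 ± 0.17 in M (limma adjusted p = 2.69e-07). Plau, the urokinase, rose by 1.69 ± 0.21 in T (limma adjusted p = 0.000245) and Itgav, the integrin subunit that binds latent TGF-beta, by 1.87 ± 0.29 (limma adjusted p = 0.000905). Lrrc32, which anchors latent TGF-beta on the surface, was lower in M than in Ctrl (-1.02 ± 0.17, limma adjusted p = 0.00299) and than in T (-1.31 ± 0.17, limma adjusted p = 0.000475). Itgb6, the partner of Itgav in a TGF-beta activating integrin, was not well above background on any T array and was at least 1.41-fold lower in T than in Ctrl (limma adjusted p = 0.00447). The latent TGF-beta binding proteins Ltbp1 and Ltbp3 fell in T by 1.12 and 0.76 on their brighter probes, but the mean over the probes of Ltbp3 was 1.63 there, so its probes disagree. In M the calls of Plau, Ltbp1 and Ltbp3 against Ctrl ended when single arrays were left out, with differences of 0.47 to 0.79, -0.82 to -0.62 and -0.73 to -0.54. For Ltbp3 that also held in T (-0.71 to -0.62 without Ctrl1, T2 or T3).

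Of 20 tested activin, BMP and growth differentiation factor (GDF) ligands, 11 fell and 3 rose in T, with a median of -0.83, where 27.1% of all genes fell and 17.6% rose. Under quantile normalization 7 were lower and 5 higher (median -0.59), and under median scaling 8 lower and 4 higher (median -0.41). In M 3 fell and 1 rose. The 3 risers in T were Gdf15, a stress-induced cytokine (1.40 ± 0.15, limma adjusted p = 0.000122), Nodal (1.53 ± 0.22, limma adjusted p = 0.000647) and Gdf9 (3.42 ± 0.37, limma adjusted p = 0.000115). Gdf9 was well above background on 2 Ctrl arrays and on no M array, and was at least 5.02-fold lower in M than in T. Gdf15 also rose in M (1.19 ± 0.15, limma adjusted p = 0.000467). Lefty1, a Nodal antagonist, fell in T (-1.14 ± 0.15, limma adjusted p = 0.00043), Inhbb, an activin subunit, fell in T (-1.56 ± 0.32, limma adjusted p = 0.00435; not called without Ctrl1 and Ctrl2, -0.81, limma adjusted p = 0.107), and Bmp5 was at least 2.82-fold lower in T (limma adjusted p = 0.000607). The falls of Bmp4 (-2.91 ± 0.99) and Gdf11 (-1.97 ± 0.63) rested on the spread of Ctrl: Bmp4 read 0.76, -0.40 and -4.16 and Gdf11 -0.57, -1.74 and -3.84 on Ctrl1 to Ctrl3. Without Ctrl1 and Ctrl2 their differences were -0.018 and -0.18. Both calls also ended when single arrays were left out (-3.15 to -1.90 and -1.88 to -1.23).

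Of 15 other receptors and coreceptors of the family, 4 rose and 4 fell in T, with a median of 0.04 that became 0.46 under median scaling, and 1 rose and 1 fell in M. Tgfbr3, the coreceptor betaglycan, was lower in T (-1.78 ± 0.20, limma adjusted p = 0.000135) and higher in M than in T (1.32 ± 0.20, limma adjusted p = 0.000971). It read -2.78, -3.03 and -3.23 in Ctrl, -4.76, -4.61 and -4.99 in T and -3.67, -3.22 and -3.53 in M, so T lay below all other arrays. Bmpr1b, a BMP receptor, had the same order, with -2.06 ± 0.30 in T against Ctrl (limma adjusted p = 0.000771). Amhr2, the anti-Muellerian hormone receptor, rose in T (1.35 ± 0.17, limma adjusted p = 0.0003), and Acvr1b, the type I activin receptor, rose in M (1.25 ± 0.22, limma adjusted p = 0.00333). Acvr1b also rose in T (0.84 ± 0.22, limma adjusted p = 0.0114), a call that ended without T3 (0.76).

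Of 16 other SMADs and nuclear partners only 1 rose and 1 fell in T, namely Trim33 and Smad1, and both calls ended without Ctrl1, T2 or T3, among other arrays (0.57 to 0.90 and -0.54 to -0.40). Smad4, the shared partner of Smad2 and Smad3, differed by 0.03 ± 0.19 in T and -0.19 ± 0.19 in M and was named after its values were seen. Zfyve9, the anchor that presents Smad2 and Smad3 to the receptor, fell in M against Ctrl (-1.11 ± 0.20, limma adjusted p = 0.00357) and against T (-1.17 ± 0.20, limma adjusted p = 0.00191). In M against Ctrl 0 genes of this list were called higher by limma, with 2 at an unadjusted p under 0.05, and in M against T 0 were called higher, with 0 at an unadjusted p under 0.05.

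Of 17 further inhibitors, 4 rose and 4 fell in T with a median of 0.35 (9 rose and 0 fell under median scaling), and 6 rose and 1 fell in M. Among the 4 that fell in T were Ldlrad4 (-1.20 to -0.43 over 23 other settings) and Tgif2 (-1.30 to -0.43). Each of these calls ended in 5 of those settings. Pmepa1, which sequesters Smad2 and Smad3 and is itself a TGF-beta target, rose in T (1.80 ± 0.23, limma adjusted p = 0.000297) and M (1.20 ± 0.23, limma adjusted p = 0.00536). It was well above background on all 3 T arrays but on only 1 array each of Ctrl and M. Nedd4l, a ubiquitin ligase acting on the pathway, rose in T (1.57 ± 0.19, limma adjusted p = 0.000217) and M (0.97 ± 0.19, limma adjusted p = 0.0061), and Smurf1, a ligase recruited by Smad7, rose in M alone of these comparisons with Ctrl (0.98 ± 0.19, limma adjusted p = 0.00687; -0.0094 in T, and 0.99 in M against T, limma adjusted p = 0.00462).

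Of 29 tested TGF-beta target genes, 14 rose and 5 fell in T with a median of 0.41, 10 rose and 3 fell in M, and 4 were higher and 8 lower in M than in T. Over all tested genes 17.6% rose and 27.1% fell in T, 12.3% rose and 11.1% fell in M, and 14.7% were higher and 10.8% lower in M than in T. Under quantile normalization and median scaling 17 rose and 3 fell in T. Id2 (2.07, limma adjusted p = 3.85e-05), Ccn1 (2.20, limma adjusted p = 7.72e-05), Snai1 (2.04, limma adjusted p = 0.000491) and Pdgfb (1.34, limma adjusted p = 0.000159) rose in T. Snai1 was also called higher in M against Ctrl, with differences of 1.05 to 1.97 under 22 other settings. That call ended only without Ctrl1 and Ctrl2 (1.13). Ccn1 is a matrix protein, Snai1 a transcriptional repressor, Id2 an inhibitor of helix-loop-helix factors and Pdgfb a growth factor. Bhlhe40, a transcription factor of macrophages, rose in T (1.66, limma adjusted p = 7.72e-05) and M (1.29, limma adjusted p = 0.000515). Cdkn2b, the cell cycle inhibitor p15, was instead at least 2.81-fold lower in T (limma adjusted p = 0.00505). Many of these genes also respond to other signals. Without Ctrl1 and Ctrl2, several calls on genes named from these lists ended: Itgb6 (-2.27) and Cdkn2b (-1.73) in T, Acvr1b in T (0.47) and M (0.87), and Zfyve9 (limma adjusted p = 0.0661), Pmepa1 (0.97), Nedd4l (0.62) and Smurf1 (0.79) in M.

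Of 13 genes known to depend on TGF-beta in microglia or macrophages, 4 rose and 1 fell in T with a median of -0.10, which was 0.13 under quantile normalization and 0.33 under median scaling. In M 3 rose and 0 fell, with 7 higher and 1 lower at an unadjusted p under 0.05 in limma. The count called higher in M was 7 under both quantile normalization and median scaling, and 5 under normexp. Mertk, a receptor for engulfing dying cells, rose in T (2.74 ± 0.20, limma adjusted p = 8.77e-06) and was lower in M than in T (-2.26 ± 0.20, limma adjusted p = 2.94e-05). Its bridging ligands Gas6 and Pros1 rose in M against Ctrl (1.33, limma adjusted p = 0.00383, and 1.53, limma adjusted p = 0.00143) and stood above T by 2.10 (limma adjusted p = 0.000163) and 2.03 (limma adjusted p = 0.000171). Slc2a5, a fructose transporter, was not well above background in Ctrl and was at least 1.84-fold higher in T and at least 2.37-fold higher in M. Olfml3 rose in T by 1.07 on its brighter probe (limma adjusted p = 0.00132), while the mean over its probes was -0.08.

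**Figure D4:**
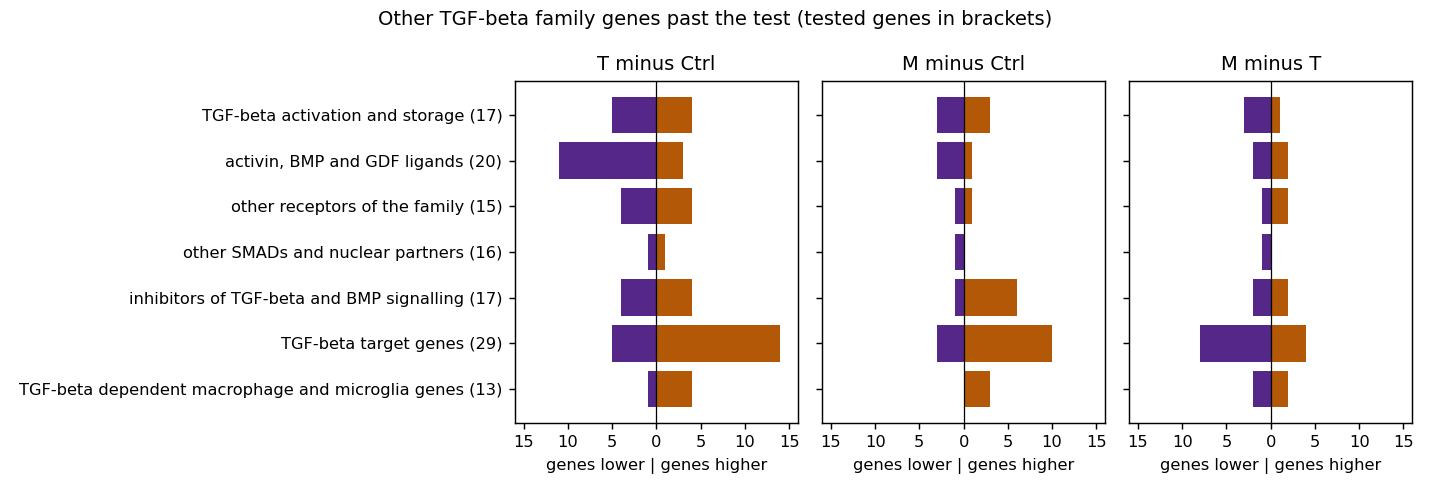
Number of genes called higher (to the right of 0) and lower (to the left) by limma in each comparison, for 7 lists of other TGF-beta family genes, with the number tested in brackets. In T against Ctrl 11 of 20 ligands were lower and 14 of 29 targets higher, where 27.1% of all genes were lower and 17.6% higher; under quantile normalization 7 ligands were lower and 5 higher.

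Markers of other cells moved with the groups as well, and in bulk RNA fewer cells of a type and less RNA per cell cannot be told apart. The summed linear level of 13 tested carcinoma epithelium markers, in units of the array's 75th percentile, was 2.44 to 4.37 on Ctrl, 2.84 to 3.21 on T and 2.80 to 3.66 on M arrays. In T against Ctrl 4 of the 13 rose and 5 fell, among them Krt19, an epithelial keratin, which rose by 3.63 (limma adjusted p = 1.06e-05), and Epcam, which fell (-1.60, limma adjusted p = 0.00218). The summed level of 6 tested platelet markers was 1.41 to 1.63 on Ctrl, 1.49 to 1.79 on T and 4.86 to 11.2 on M arrays, with Pf4, the platelet chemokine, higher in M than in Ctrl by 5.98 (limma adjusted p = 1.45e-06). A linear sum follows its brightest genes: of these 6 markers 2 were called higher and 0 lower in M against Ctrl, with a median log2 difference of -0.44. For 10 granulocyte and mast cell markers the summed level was 0.652 to 1.14, 1.26 to 1.44 and 2.79 to 2.82. Of these 10, 2 were called higher and 1 lower in M against Ctrl, with a median log2 difference of -0.43. At an unadjusted p under 0.05 in limma 2 were higher and 5 lower. The sums were 0.239 to 0.391, 0.241 to 0.272 and 0.214 to 0.292 for 6 fibroblast and mesothelial markers. They were 3.30 to 4.56, 3.84 to 4.05 and 3.70 to 4.27 for 9 T and NK cell markers, and 0.593 to 0.886, 0.572 to 0.616 and 0.406 to 0.539 for 6 B cell markers. The sort marker Adgre1 differed by 0.10 in T and rose by 2.86 in M (limma adjusted p = 1.29e-05), and Ptprc (CD45) differed by 0.02 in T and rose by 0.80 in M (limma adjusted p = 0.0218). The call of Ptprc ended without Ctrl1, Ctrl2, M1 or M3 (0.68 to 0.79). Among tested markers, Muc1 (carcinoma), Gp1ba (platelet) and Prg2 (granulocyte) were not well above background on any M array, Pdgfrb (fibroblast) and Cd3d (T cell) on any Ctrl or M array, and Gzma (T and NK cell) on any T array. The part of these cells in the differences of the TGF-beta genes was not tested.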

How the data were processed

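RNA of 9 samples, 3 each of Ctrl, T and M, was measured on 1-colour Agilent arrays labelled with Cy3. Spot intensity was extracted by the authors, whose processing notes as submitters name Agilent Feature Extraction 10.7.3.1, and the deposited processed signal is background-subtracted, per the file headers; it was not scaled between arrays. Here control and outlier spots were dropped, spots of a probe averaged, log2 taken and the array's 75th percentile subtracted. Probes were named through RefSeq accessions (26762 probes, table of GRCm38.p6) or else by the array's own name (5665), and 23254 carried no symbol. A probe entered the test when some group had it well above background in its 3 arrays, and the brightest probe stood for its gene. The functions lmFit and eBayes of limma 3.58.1 (R 4.3.3) fitted group means, with Benjamini-Hochberg adjustment over 18162 genes. The procedure was tested on simulated data. Folds written "at least" set the bright group's mean against, per array of the dim group, the higher of the dim probe's own signal and the dimmest signal of any probe that was well above background. The precision is limited by 3 arrays a group.

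The members and lists were chosen with earlier results of these data known. All members were named; of each pathway list, the up to 4 called genes with the largest difference in a comparison, of each marker list up to 3, the sort markers, and for each member up to 3 genes most like it. Not every such gene is printed.

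The authors' deposited table of values, used as an alternative, was set against the scanner files. Its columns for Ctrl1 and M1 to M3 hold linear intensity and the others log2 values, whose scale and centring the authors did not state. Of its columns 6 equalled their own scanner file for 99.2% to 99.6% of probes (tolerance 0.001), those of M1 and M2 equalled each other's file, and that of T2 equalled none, so its scale stays inferred.

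Replicate numbers are shared by the groups. Same-numbered samples of Ctrl and T deviated together (r = 0.548, 0.119 and 0.377). Those of Ctrl and M (-0.267, -0.191, 0.017) and of T and M (-0.274, -0.147, 0.023) did not. Samples with different numbers were not set beside these, so whether the numbers pair Ctrl and T was not tested, and the labels do not say. Exon and UTR positions of probes on mm9 were not used here.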

Additional observations from a re-analysis of the deposited data

How the results depend on the processing

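In T against Ctrl the count of 7 higher and 0 lower members was 7 to 9 higher and 0 lower under 20 of 23 other settings, and 6, 5 and 4 higher under the mean over probes, without Ctrl1 and Ctrl2, and with the deposited value table; Smad6 and Smad7 kept their calls in all 23. Counts in M against Ctrl moved most. Its 1 lower member (Tgfb3) became 0 under normexp background correction, median scaling, the 2-group fit, the replicate block and the deposited table. Under the mean over probes there were 2, Tgfb3 and Smad3. Tgfb3 was also not called without Ctrl1 and Ctrl2 or without M1 and M3, and the former left Smad3 at -0.89 in this comparison. Its 2 higher members became 5 under median scaling and array weights, 1 without Ctrl1 and Ctrl2 and 0 without M1 and M3. In M against T the 0 higher became 1 under the 2-group fit, array weights and without Ctrl1 and Ctrl2, and the 5 lower became 2 with the deposited table.

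Leaving out 1 array gave 1 to 5 higher and 0 to 1 lower in M against Ctrl, 0 to 1 higher in M against T, 1854 to 7817 called genes in M against Ctrl and 2866 to 6118 in M against T. Over all genes, 8116, 4248 and 4623 were called in T against Ctrl, M against Ctrl and M against T. Without Ctrl1 and Ctrl2 these were 3286 and 1263 for the first pair of comparisons, without M1 and M3 903 and 2347 for the last pair, with the deposited values 2059 and 1393, and with array weights 8573 and 9157. The 2-group fit gave 2251 in M against Ctrl, and no filter on dim probes gave 7149 in M against T. Calls in the higher direction made up 39.3% in T against Ctrl, 52.5% under quantile normalization and 66.1% under median scaling. In M against Ctrl it was 52.5%, 66.3% and 74.5%, and in M against T 57.6%, 54.5% and 44.8%.

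Signs turned for Skil in M against Ctrl (-0.029) and Smad2 in M against T (-0.12) without M1 and M3, and for Tgfb1 in M against T (-0.072) with the deposited table. Under the mean over probes they turned for Ltbp1 in M against Ctrl (1.05), Ltbp3 in T (1.63) and M (0.85) against Ctrl and Olfml3 in T against Ctrl (-0.078). The cause was not tested. Leaving out Ctrl1 and Ctrl2, or M1 and M3, was chosen after seeing the data. The replicate block left 7 members higher in T against Ctrl, in all 9 arrays and in Ctrl and T alone, and ended the calls of Tgfb3 in M against Ctrl and Skil in M against T; it changed no other member's call. Slide as a block could not be fitted, since T fills a slide of its own.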

Other observations

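The deposited value table's T2 column correlated with the scanner file of M1 at r = 0.980 across tested genes, with M2 at 0.980 and with its own T2 file at 0.973. Its entries for the members read -3.20 for Tgfb3, -0.52 for Smad3, -1.45 for Smad6, -1.09 for Skil and 2.46 for Tgfb1. On T1 and T3 the same table reads -0.22 and -0.048 for Tgfb3, and 1.30 and 1.31 for Smad3. Which source holds the sample labelled T2 was not tested.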
